A study of Mus musculus with 2 samples.

Results

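The mesenchymal and fibroblast identity genes are 10 genes picked by name from the 23183 gene symbols of the series: Thy1, Pdgfra, Cd34, Ly6a, Vim, Fap, Pdpn, Prrx1, Twist1 and Twist2. They are surface markers of fibroblasts, a filament protein and transcription factors of mesenchymal cells, and all 10 were found in the files. They were measured by RNA sequencing of cultures labelled as MCECs, endothelial cells of the mouse corpus cavernosum. The HG+HBS library came from cells given the vehicle HBS, and the HG+PC-NVs library from cells given PC-NVs, which are vesicle-like particles extruded from cultured mouse cavernous pericytes and added at 1 µg/mL. Both cultures were kept in high glucose (HG, 30 mM), and normal-glucose libraries were not analysed here. RNA was isolated 72 hours after the glucose condition began and 24 hours after the vesicles were added, whereas a glucose time of 5 days is given in the labels. The cells came from the penis of 8-week-old male C57BL/6J mice, as cells that had sprouted over 2 weeks, at passages 2 to 4, in medium with 20% serum, heparin and 5 ng/mL VEGF. In the study's high-glucose protocol, cultured cells were serum-starved for 24 hours before the glucose exposure, a step its sequencing methods do not mention. The protocols used here name no sort for an endothelial marker. With 1 library per condition, no difference has a replicate check and no p-value was computed, so intervals cover counting error only and "higher" and "lower" compare these 2 libraries.

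Mesenchymal cells are the matrix-building cells of connective tissue. Fibroblasts are commonly identified by surface proteins such as THY1 (CD90) and PDGFRA and by the filament protein vimentin, although no single gene is exclusive to them: CD34, LY6A and vimentin are also found in endothelial cells, and podoplanin marks lymphatic endothelium. PRRX1 and the TWIST proteins are transcription factors of embryonic mesenchyme, and the TWIST factors are also studied for their part in the transition of epithelial cells to a mesenchymal state.

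The libraries are called HBS and PC-NVs for short, and paired levels are given in that order. Levels are normalized FPKM, fragments scaled to transcript length and library depth, summed over the rows of a symbol. They are per length, so levels of different genes can be set side by side. Depth, estimated from the most frequent low value, was about 13300000 fragments in HBS and 11600000 in PC-NVs. All 10 genes were expressed in both libraries, from 24.4 FPKM (Twist2) to 2230 FPKM (Vim) in HG+HBS and from 37.8 FPKM (Fap) to 1588 FPKM (Vim) in HG+PC-NVs. In each library 8 of the 10 were among the 1000 genes with the highest level, the exceptions being Fap and Twist2. Together they made up 0.869% of the summed FPKM of HG+HBS and 0.806% of that of HG+PC-NVs.

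**Figure D1:**
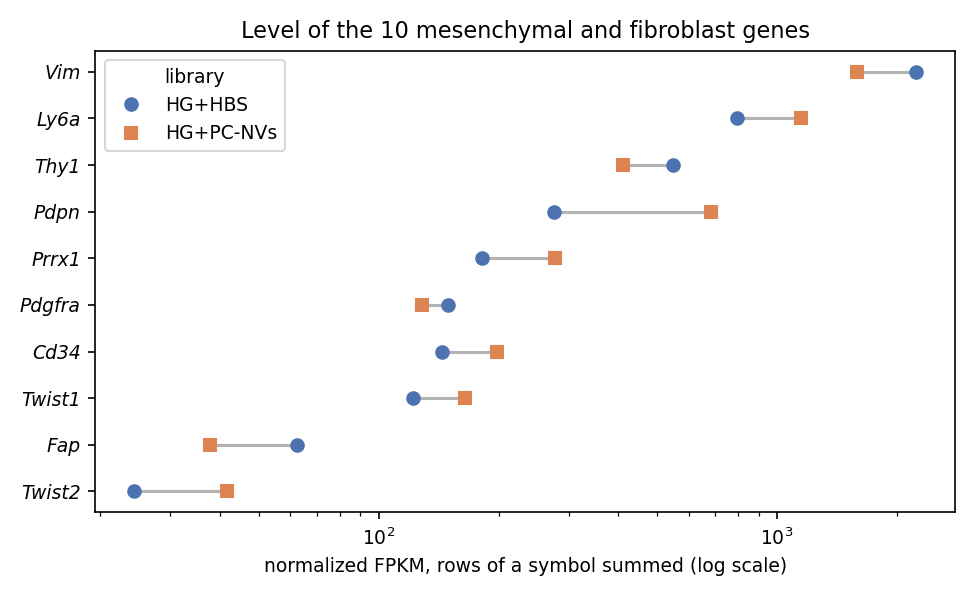
Level of each of the 10 genes in normalized FPKM on a log scale, with circles for HG+HBS and squares for HG+PC-NVs, 1 library each, joined by a line. Vim was highest in both libraries, and Pdpn has the longest line, from 275 to 683 FPKM.

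The labelled cell type was checked against its defining markers. Of 18 endothelial markers, 11 were under 1 FPKM in both libraries, 7 reached 1 FPKM in HBS and 5 in HG+PC-NVs. The median endothelial marker was at 0.455 FPKM in HBS and 0.387 FPKM in PC-NVs, against 166 and 237 FPKM for the mesenchymal and fibroblast genes. Pecam1, which encodes CD31, was at 1.05 FPKM in HBS and 0.938 FPKM in PC-NVs. Cdh5, VE-cadherin, was at 5.05 and 5.73 FPKM, and Kdr, a VEGF receptor, at 0.518 and 0.438 FPKM. The highest of these 18 was Esam, an adhesion molecule that is not limited to endothelium, at 17.4 and 11.7 FPKM. All 10 mesenchymal and fibroblast genes lay above it in each library. This order depends on how the lists were drawn. Eng, endoglin, is also used as an endothelial marker but was placed with the stromal surface genes here. It was at 29.0 and 21.4 FPKM, above Esam in each library and above Twist2 in HBS. Plvap, a protein of endothelial fenestrae, at 4.90 and 2.36 FPKM, was the 1 of 6 tested endothelial markers called lower in PC-NVs by a fold of 1.5, and 0 were called higher. The libraries labelled as endothelial cells thus held little RNA of most endothelial markers and high levels of the fibroblast markers. In RNA of a whole culture, fewer cells of a type and less RNA per cell cannot be told apart.

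Markers of other cell types were low by comparison, with exceptions. The 10 pericyte markers summed to 106 FPKM in HBS and 111 FPKM in PC-NVs, with Pdgfrb highest, at 38.4 and 33.7 FPKM, and Higd1b listed at 0. The 8 smooth muscle markers summed to 72.1 and 37.0 FPKM, with Acta2 at 27.6 and 8.02 FPKM, Tagln at 17.3 and 7.34 FPKM, Smtn, the highest of the list, at 25.3 and 21.2 FPKM and Myh11, the smooth muscle myosin, at 0.0108 and 0.0122 FPKM. The 11 myeloid markers summed to 337 FPKM in HBS and 567 FPKM in PC-NVs, mostly from Lyz2 (212 and 193 FPKM) and Cd14 (36.6 and 252 FPKM). The macrophage markers Adgre1, which encodes F4/80, at 7.44 and 42.5 FPKM, and Aif1, at 2.93 and 12.9 FPKM, were called higher together with Cd14, with log2 ratios of 2.37, 1.82 and 2.75. Ptprc, the pan-leukocyte marker CD45, was at 1.44 and 1.67 FPKM, inside the fold threshold. The 7 lymphocyte markers summed to 0.611 and 0.482 FPKM, with Cd4 highest, at 0.399 and 0.412 FPKM, and Cd3e, Cd8a and Ms4a1 listed at 0. The 6 epithelial markers summed to 0.395 and 0.319 FPKM, with Krt8 highest, at 0.212 and 0.148 FPKM, and Cdh1, Krt5, Krt14 and Cldn4 listed at 0. The 8 neuron and Schwann cell markers summed to 26.3 and 27.3 FPKM, most of it Tubb3 (12.8 and 7.26 FPKM, called lower) and Snap25 (8.9998 and 14.9 FPKM, called higher). The 4 lymphatic endothelial markers summed to 2.92 and 4.90 FPKM, of which Flt4 gave 2.79 and 4.50 FPKM, and Ccl21a was listed at 0. In PC-NVs the summed level was thus lower for the smooth muscle list, of which 2 of 3 tested genes were called lower. The sum of the myeloid list was higher, mostly through Cd14, and the list did not move as a whole. Of its 10 tested genes 3 were called higher and 0 lower, with 6 above equality and 4 below. Among those below, Cd68 was at 36.2 and 26.3 FPKM and Csf1r at 8.39 and 6.20 FPKM, both inside the fold threshold. The part of these lists in the results for the 10 genes was not tested.

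**Figure D2:**
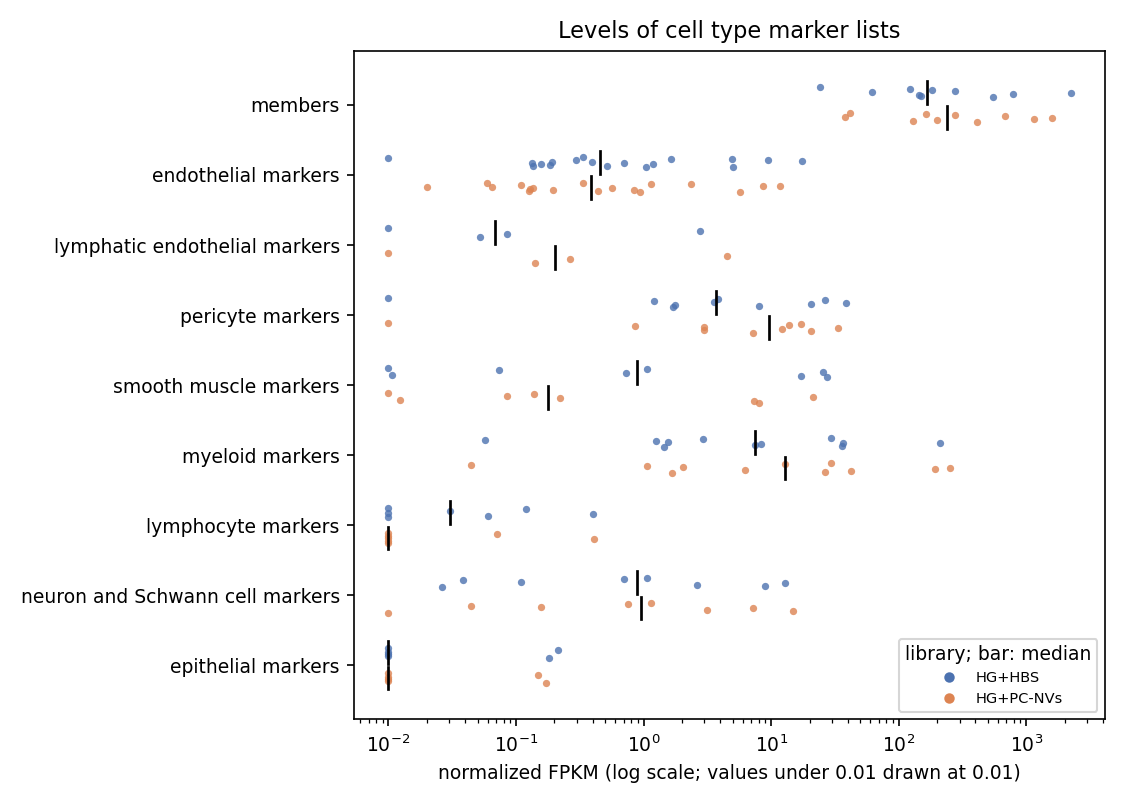
Level of each gene of the cell type marker lists in normalized FPKM on a log scale, with 1 dot per gene and library and a black bar at the median of the list. The 10 mesenchymal and fibroblast genes (top) all lie above 24 FPKM, to the right of each of the 18 genes listed as endothelial markers.

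Between the libraries the 10 genes went both ways. On the log2(FPKM + 1) scale, 6 were higher and 4 lower in HG+PC-NVs, with a median log2 ratio of 0.44 against -0.01 over the 11785 genes tested, for which the log2 values averaged 1 or more. No gene was tested statistically, and "tested" means compared with the fold threshold. With a fold of 1.5 as the threshold, 3 were called higher, Pdpn, Twist2 and Prrx1, and 1 was called lower, Fap. Of all genes tested, 5.33% were past this threshold on the higher side and 3.57% on the lower side. These shares are the background for the calls in every gene list given here. Among the 2652 genes whose log2 values averaged 5 or more, the range in which all 10 lie, these shares were 6.18% and 2.38%. The median log2 ratio of these 2652 genes was 0.04. At a fold of 2, 1 was higher, Pdpn, and 0 were lower, with 2.38% and 0.798% of all genes tested past it. At a log2 threshold of 0.32 in place of that fold, 6 were higher and 3 lower, with 12.4% and 12% of all genes tested past it. The split depended on the normalization. The study's methods name quantile normalization as a step behind the deposited values, but the distributions in the files were not identical, with the 99th percentile of the rows at 7.69 in HBS and 7.87 in PC-NVs on the log2 scale. After quantile normalization of the deposited values, which makes them equal, 2 were called higher (Pdpn and Twist2) and 3 lower (Fap, Vim and Thy1), against 4.96% and 3.89% of all genes tested. Each of the 10 genes kept its side of 0 under quantile normalization, upper-quartile scaling and median centring. The median absolute log2 ratio of the 10 genes was 0.51, beside 0.16 for all genes tested. The latter include genes of low level, whose ratios the pseudocount of 1 shrinks, so these 2 values are not matched for level.

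**Figure D3:**
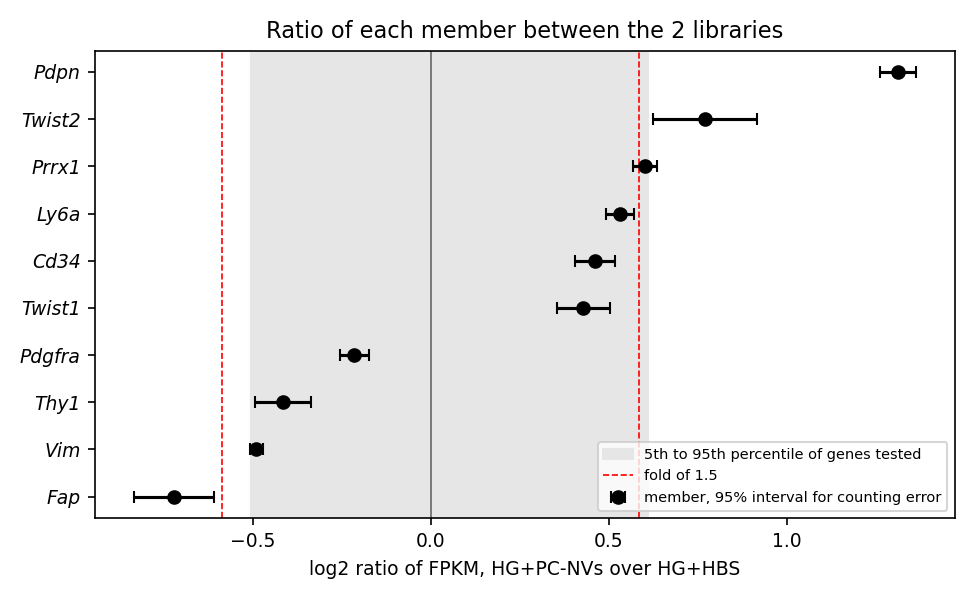
Log2 ratio of FPKM (HG+PC-NVs over HG+HBS) of each of the 10 genes, with 95% Wilson intervals for counting error. The grey band spans the 5th to 95th percentile of the genes tested, computed on log2(FPKM + 1), dashed lines mark a fold of 1.5, and Pdpn lies farthest to the right and Fap farthest to the left.

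Among the surface genes, 3 of 6 were higher and 3 lower in HG+PC-NVs. Pdpn encodes podoplanin, a mucin-type membrane glycoprotein that binds the platelet receptor CLEC-2 and links to the actin cytoskeleton through ezrin and moesin. The gene spans bases 143267431 to 143299564 of chromosome 4 (GRCm38, reverse strand). Its level was 275 FPKM in HBS and 683 FPKM in PC-NVs, a ratio of 2.48 (2.40 to 2.57 as the 95% Wilson interval of the counts, approximately 4726 and 10225 fragments). By level Pdpn went from rank 256 to rank 133 of all symbols, and its log2 ratio, 1.31, ranked 172 from the top among the 11785 genes tested. After quantile normalization the log2 ratio was 1.11. Both of its rows were higher, the main one going from 268 to 662 FPKM and the minor one from 7.05 to 21.03 FPKM. The level of Pdpn was 0.501 times that of Thy1 in HBS and 1.66 times in PC-NVs, so their order was swapped.

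Of 8 podoplanin partners, 7 were tested, 1 was called higher and 0 lower, beside 5.33% and 3.57% of all genes tested. The gene called higher was Ezr, ezrin, at 25.3 FPKM in HBS and 39.1 FPKM in PC-NVs. Its log2 ratio of 0.61 fell inside the threshold after quantile normalization (0.56). Msn, moesin, was at 194 and 250 FPKM, and Cd9, the tetraspanin with the highest level of this list, at 290 and 375 FPKM. The receptor Clec1b was at 0.188 FPKM in HBS and listed at 0 in PC-NVs.

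Ly6a encodes SCA-1, a GPI-anchored surface protein used as a marker of progenitor cells, which is inducible by interferon. It lies on chromosome 15 from 74994877 to 74998031. Its level was 794 FPKM in HBS and 1148 FPKM in PC-NVs, a ratio of 1.45 (1.41 to 1.49). The log2 ratio was 0.53 as deposited and 0.34 after quantile normalization, under the threshold in both. The value is less certain than the others, since 19.0% of the 50-base stretches of its coding transcripts also occur in transcripts of other genes, mainly Ly6c1, a share that is at most 0.172% for each of the other genes. In the Ly6 family 3 of 12 other genes were tested, and 0 were called higher or lower. Ly6c1 was at 279 and 301 FPKM, Ly6e at 360 and 456 FPKM, and Lynx1 at 27.7 and 22.1 FPKM. On the upper end of the family Ly6a therefore stood above Ly6e and Ly6c1 in each library.

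Cd34 encodes a sialomucin found on haematopoietic progenitors, endothelial cells and some fibroblasts, and it lies on chromosome 1 from 194938819 to 194961279. Its level was 144 FPKM in HBS and 198 FPKM in PC-NVs, a ratio of 1.38 (1.33 to 1.43), with both rows higher. This did not reach the threshold. Exons of Cd34, Pdgfra and Twist2 overlap those of antisense or unclassified genes on the opposite strand, and since the strand setting of the counting is not given in the sources used here, reads of the partner genes could be included.

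Fap, fibroblast activation protein, is a serine protease of activated fibroblasts, on chromosome 2 from 62500943 to 62574075. Its level was 62.2 FPKM in HBS and 37.8 FPKM in PC-NVs, a ratio of 0.607 (0.562 to 0.656; approximately 1859 and 982 fragments), or 1.65-fold lower. Its log2 ratio of -0.71 ranked 259 from the bottom among the genes tested. The level of Pdpn was 4.42 times that of Fap in HBS and 18.1 times in PC-NVs. Of the 7 relatives of Fap among the prolyl peptidases, 4 were tested and 0 passed the threshold. Dpp7, the highest of them, was at 33.2 and 33.5 FPKM. Dpp4, the closest relative of Fap and a marker of some fibroblasts, was close to 0 in HBS and 0.0229 FPKM in PC-NVs.

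Thy1 encodes the GPI-anchored protein CD90, which is the fibroblast marker used in the study's own check of its pericyte cultures and is also found on T cells and neurons. It lies on chromosome 9 from 44043384 to 44048579. Its level was 549 FPKM in HBS, rank 143 of all symbols, and 412 FPKM in PC-NVs, rank 195, a ratio of 0.750 (0.711 to 0.792). The log2 ratio of -0.41 was inside the threshold as deposited and past it after quantile normalization, at -0.61. The T cell markers Cd3e and Cd8a were listed at 0, and Cd4 was at 0.399 and 0.412 FPKM. The neuronal marker Rbfox3 was at 0.0262 FPKM in HBS and listed at 0 in PC-NVs. In the same neuronal list Tubb3 was at 12.8 and 7.26 FPKM, Snap25 at 8.9998 and 14.9 FPKM and Syn1 at 2.64 and 3.14 FPKM. The part of such cells in the level of Thy1 was not tested.

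Pdgfra, a receptor tyrosine kinase whose ligands include PDGF-A and PDGF-C, lies on chromosome 5 from 75152292 to 75198215. Its level was 149 FPKM in HBS and 129 FPKM in PC-NVs, a ratio of 0.862 (0.837 to 0.888), the smallest difference among the 10 genes. Its main row went from 134 to 119 FPKM and its minor row from 15.6 to 9.93 FPKM. All 4 PDGF ligand genes were tested, and 1 was called lower, Pdgfd, at 23.2 FPKM in HBS and 14.8 FPKM in PC-NVs. Pdgfa was at 10.05 and 13.5 FPKM, Pdgfb at 1.61 and 0.955 FPKM and Pdgfc at 2.85 and 2.88 FPKM. Pdgfa, Pdgfb and Pdgfc were each inside the threshold on the log2(FPKM + 1) scale. Pdgfra was thus far above all 4 PDGF ligand genes in each library.

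Vim encodes vimentin, the intermediate filament protein of mesenchymal and endothelial cells, and lies on chromosome 2 from 13573927 to 13582826. Its level was 2230 FPKM in HBS, rank 15 of all symbols, and 1588 FPKM in PC-NVs, rank 47, a ratio of 0.712 (0.703 to 0.721). The log2 ratio was -0.49 as deposited and -0.77 after quantile normalization, past the threshold only with the latter among the normalizations tried. All 10 genes summed to 4532 FPKM in HBS and 4679 FPKM in PC-NVs, and without Vim to 2302 and 3090 FPKM. The largest gains in the sum without Vim were those of Pdpn (275 and 683 FPKM) and Ly6a (794 and 1148 FPKM). Thy1, Pdgfra and Fap were lower, so this sum does not stand for a rise of each gene. Of 14 other intermediate filament genes 5 were tested, 0 were called higher and 2 lower. Those were Krt18, a keratin, at 9.61 and 2.05 FPKM, and Nes, nestin, at 6.09 and 3.60 FPKM. Lmna, the nuclear lamin with the highest level of the list, was at 383 and 296 FPKM, and Krt5, Krt7 and Krt14 were listed at 0.

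All 3 transcription factor genes were higher in HG+PC-NVs, and 2 of them passed the threshold, beside 5.33% of all genes tested. This does not stand for a rise of mesenchymal transcription factors in general. Of 21 other such genes tested, 8 were above equality and 13 below. Prrx1, a homeobox factor of limb and craniofacial mesenchyme, lies on chromosome 1 from 163245119 to 163313710. Its level was 182 FPKM in HBS and 277 FPKM in PC-NVs, a ratio of 1.52 whose counting interval, 1.48 to 1.55, contains the threshold. Its 3 rows were all higher, with log2 ratios from 0.53 to 0.64. The call was lost with quantile normalization (log2 ratio 0.52) and with upper-quartile scaling (0.56).

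Twist1 and Twist2 encode basic helix-loop-helix factors that pair with E proteins and bind the E-box CANNTG. Twist1 lies on chromosome 12 from 33957671 to 33959829, and Twist2 on chromosome 1 from 91801461 to 91848028. Twist1 was at 122 FPKM in HBS and 164 FPKM in PC-NVs, a ratio of 1.35 (1.28 to 1.42) that did not reach the threshold. Twist2 was at 24.4 FPKM in HBS and 41.6 FPKM in PC-NVs, a ratio of 1.71 (1.54 to 1.89; approximately 626 and 930 fragments). Twist1 was the higher of the pair in each library, by 5.01 times in HBS and 3.95 times in PC-NVs. The most similar 90-base windows of their coding sequences are shown because near-identical paralogs could have shared reads. In GENCODE M21 they cover coding bases 347 to 436 of Twist1 and 209 to 298 of Twist2, with 82 of 90 bases identical and the 8 differing bases in capitals.
Twist1: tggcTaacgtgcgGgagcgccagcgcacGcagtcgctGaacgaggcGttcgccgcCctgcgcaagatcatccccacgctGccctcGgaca
Twist2: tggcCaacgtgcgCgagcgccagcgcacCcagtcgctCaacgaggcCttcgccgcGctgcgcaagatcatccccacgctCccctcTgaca
The longest run without a difference in this window is 23 bases, and 0 of the 50-base stretches of either gene's coding transcripts occur in transcripts of another gene.

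Of 11 partners and inhibitors of the Twist factors, 9 were tested, 1 was called higher and 0 lower. Over all genes tested the shares called were 5.33% and 3.57%. The E protein genes Tcf3, Tcf4 and Tcf12 were each below equality, at 32.4, 52.5 and 58.5 FPKM in HBS and 27.1, 40.4 and 50.7 FPKM in PC-NVs. The Id genes, whose products bind E proteins and keep them from DNA, were each above it. Id4 passed the threshold, at 7.31 FPKM in HBS and 17.8 FPKM in PC-NVs, a log2 ratio of 1.18. Id3, the gene of this list with the highest level, was at 176 and 263 FPKM, just inside the threshold with a log2 ratio of 0.57. Id1 was at 118 and 149 FPKM and Id2 at 14.7 and 19.4 FPKM. The sign of these 7 log2 ratios was the same after quantile normalization.

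The promoters of the 3 genes called higher are shown so that their letters can be read beside their ratios. Each runs from 250 bases before to 50 bases after the annotated gene start, read from RefSeq on GRCm38.p6 in the direction of the gene, and 7 of the 10 genes matched the table. Capitals mark the E-box CANNTG and the GC box GGGCGG on either strand. The windows are chr4:143299515-143299814 for Pdpn (reverse strand), chr1:91801211-91801510 for Twist2 (forward strand) and chr1:163313601-163313900 for Prrx1 (reverse strand).
Pdpn: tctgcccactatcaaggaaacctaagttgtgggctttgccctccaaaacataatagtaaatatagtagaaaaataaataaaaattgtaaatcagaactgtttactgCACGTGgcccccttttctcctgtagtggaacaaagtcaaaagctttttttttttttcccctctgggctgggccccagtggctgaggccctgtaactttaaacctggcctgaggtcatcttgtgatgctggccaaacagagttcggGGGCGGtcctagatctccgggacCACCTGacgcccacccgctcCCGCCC
Twist2: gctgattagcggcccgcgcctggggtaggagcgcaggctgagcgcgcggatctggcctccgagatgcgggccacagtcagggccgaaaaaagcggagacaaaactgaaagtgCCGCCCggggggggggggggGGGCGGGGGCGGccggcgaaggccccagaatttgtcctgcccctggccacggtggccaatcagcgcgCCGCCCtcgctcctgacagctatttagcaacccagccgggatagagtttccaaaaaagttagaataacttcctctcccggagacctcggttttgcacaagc
Prrx1: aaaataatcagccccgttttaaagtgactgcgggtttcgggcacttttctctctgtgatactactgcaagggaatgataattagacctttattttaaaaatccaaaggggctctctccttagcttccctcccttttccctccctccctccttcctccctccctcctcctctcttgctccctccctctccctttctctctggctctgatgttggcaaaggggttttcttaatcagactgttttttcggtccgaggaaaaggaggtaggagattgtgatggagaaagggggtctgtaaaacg
The Pdpn window holds 2 E-boxes, CACGTG starting 144 bases before the gene start and CACCTG starting 24 bases after it, and 2 GC boxes. The Twist2 window holds 0 E-boxes and 4 GC boxes, and the Prrx1 window holds neither. Of the 32851 promoters in the table, 72.3% hold an E-box and 35.7% a GC box. Searches of both strands for AP-1 (TGANTCA), NF-kB and the TATA box (TATAAA) found none of them in these 3 windows, and 7.81%, 4.51% and 13.6% of all promoters hold them. These are matches of letters, not measured binding.

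Other genes of the mesenchymal program are given for comparison. Of 26 further mesenchymal transcription factors, 21 were tested, 1 was called higher and 1 lower, with a median log2 ratio of -0.06. Over all genes tested the shares called were 5.33% and 3.57%. Of the 21, 8 were above equality and 13 below. Meox2, a homeobox gene, was at 0.699 FPKM in HBS and 2.71 FPKM in PC-NVs. Osr1, an odd-skipped zinc finger gene, was at 21.3 and 11.6 FPKM. Prrx2, the paralog of Prrx1 and the highest of this list, was at 110 FPKM in HBS and 93.3 FPKM in PC-NVs, so it lay on the other side of equality from Prrx1. The transition factors Snai1 (28.4 and 27.8 FPKM) and Zeb1 (28.9 and 27.7 FPKM) were within 0.1 of equality on the log2 scale. Their paralogs lay farther from it, both inside the fold threshold. Snai2 was lower, at 25.9 and 20.6 FPKM (log2 ratio -0.32), and Zeb2 higher, at 10.4 and 11.8 FPKM (0.18).

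Of 16 other fibroblast and stromal surface genes, 13 were tested, 0 were called higher and 2 lower. Over all genes tested the shares called were 5.33% and 3.57%. Cd248, endosialin, was at 107 FPKM in HBS and 62.1 FPKM in PC-NVs, and Islr at 98.9 and 58.8 FPKM. Cd81, a tetraspanin and the highest of the list in HG+HBS, was at 342 and 367 FPKM. The median log2 ratio of this list was 0.10 as deposited and -0.11 after quantile normalization, so its direction depended on the scaling.

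Of 17 secreted fibroblast genes, 16 were tested, 2 were called higher and 1 lower, with a median log2 ratio of -0.21. Dcn, decorin, was at 623 FPKM in HBS and 1283 FPKM in PC-NVs, the largest ratio of this list. Lox, lysyl oxidase, was at 56.5 and 91.3 FPKM. Col1a2, a chain of type I collagen, was at 312 and 198 FPKM, the call on the lower side, while its partner chain Col1a1 was at 161 and 139 FPKM and did not pass. Fn1, fibronectin, was the highest of the list in HG+HBS, at 1344 FPKM, and was at 964 FPKM in PC-NVs. Of these 16 genes, 12 were below equality as deposited and 13 after quantile normalization, in which 3 were called lower. Of 6 adhesion genes followed in epithelial to mesenchymal transition, 3 were tested and 0 passed. Cdh11, a mesenchymal cadherin, was at 74.3 and 57.2 FPKM, Cdh2, N-cadherin, at 12.02 and 11.4 FPKM, and Cdh1, E-cadherin, was listed at 0.

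**Figure D4:**
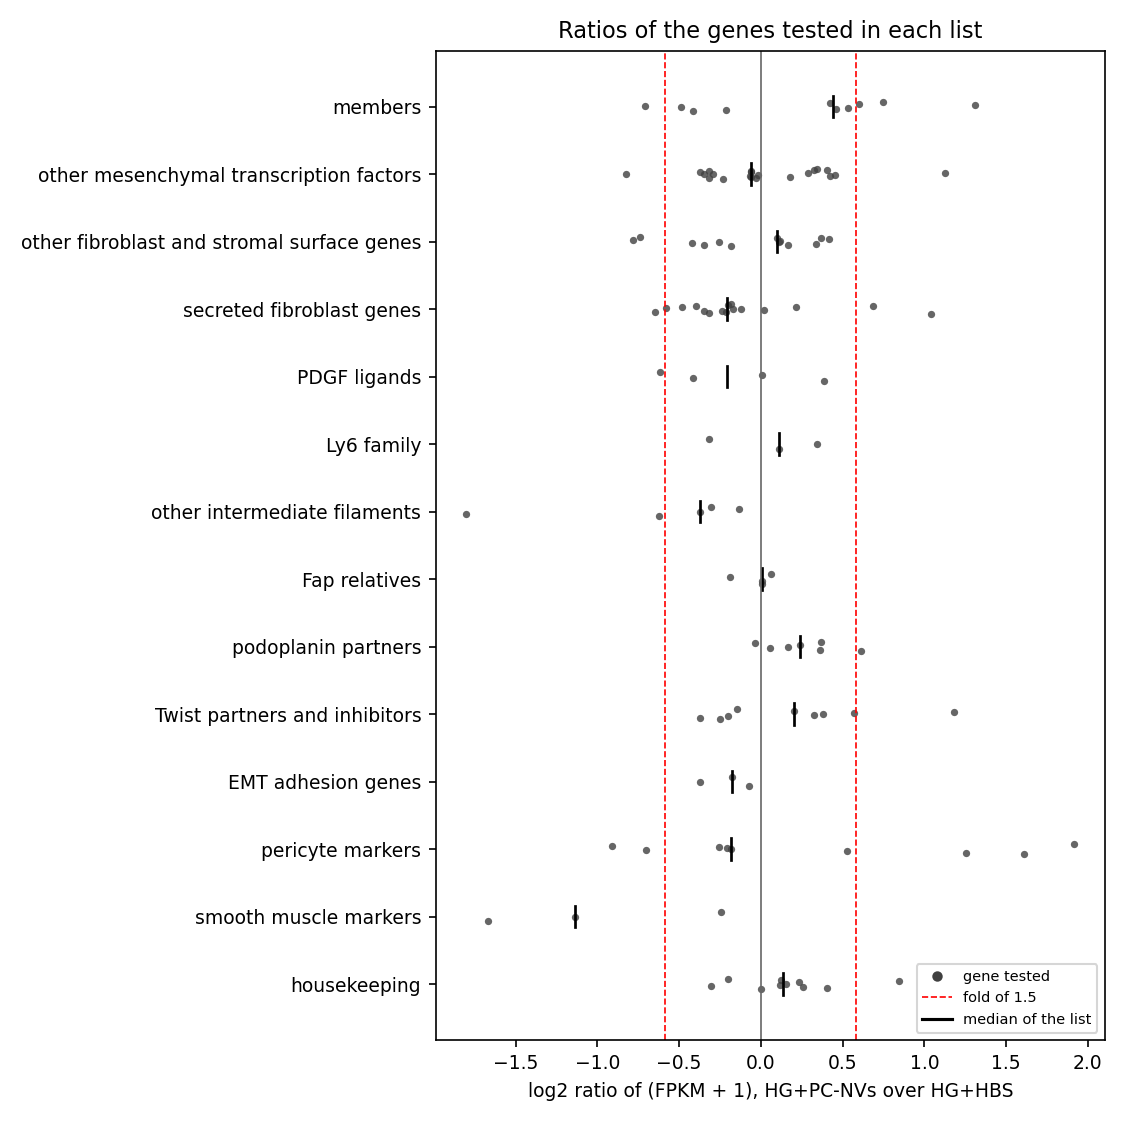
Log2 ratio of (FPKM + 1), HG+PC-NVs over HG+HBS, of each gene tested in the mesenchymal, related and reference lists, with 1 dot per gene, a black bar at each list's median and dashed lines at a fold of 1.5. The 10 mesenchymal and fibroblast genes (top row) spread from -0.71 to 1.31.

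For reference, the median log2 ratio over 10 housekeeping genes was 0.14 without and 0.01 with quantile normalization, with Pgk1 the 1 past the threshold, at 219 and 395 FPKM. Eef1a1, the highest of them, was at 4647 and 5052 FPKM. Among pericyte markers, 3 were called higher, Ndufa4l2, Rgs5 and Kcnj8, and 2 lower, Anpep and Cspg4, and their part in the results was not tested. The levels of these 5 stayed at or under 26.7 FPKM in each library, below those of 9 of the 10 mesenchymal and fibroblast genes. The exception was Twist2, at 24.4 FPKM in HBS, where Anpep was at 26.7 FPKM.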

How the data were processed

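The members and lists were chosen with earlier results of these data known. Per the methods and the submitters' processing notes, poly(A) RNA was sequenced paired-end with a stranded kit, adapters and poor reads were removed, and the authors mapped with TopHat (build mm10), estimated FPKM with Cufflinks and normalized with edgeR, by what the methods call quantile normalization. Versions are not given in the sources used here, nor is the strand setting, although the kit keeps strand. The deposited values, 33299 rows per library, are log2(normalized FPKM + 1).

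Here each row was converted to 2^value - 1 and summed per symbol, without further scaling; quantile normalization of the deposited values was an alternative. Ratios used log2(FPKM + 1). Genes whose log2 values averaged 1 or more (11785 of 23183 symbols) were tested, and called past a fold of 1.5. The pseudocount of 1 shrinks ratios of low genes. No p-value was computed, with 1 library per condition. The worth of 1 fragment was the most frequent low value of FPKM times length over 2189 genes with a single transcript over 1500 nt. It gave approximate fragments per gene, from the median length of basic coding transcripts, and 95% Wilson intervals, which cover counting error only. Coordinates are from GENCODE M21 (GRCm38). Named were all members and, per list, genes past the threshold, the highest gene and, in marker lists, genes at 0, plus relatives and defining markers named after their values were seen. Calculations were tested on simulated data, with Python 3.11.15, numpy 2.4.6, pandas 2.3.3 and matplotlib 3.10.9.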

Additional observations from a re-analysis of the deposited data

How the results depend on the processing

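With a fold of 2 in place of 1.5, 1 gene was higher and 0 lower, beside 2.38% and 0.798% of all genes tested. With a log2 threshold of 0.32, 6 were higher and 3 lower, beside 12.4% and 12% of all genes tested. Quantile normalization, applied to the deposited values, gave 2 higher and 3 lower, beside 4.96% and 3.89% of all genes tested. The median log2 ratio of the 10 genes was then 0.34. In the other settings tried (upper-quartile scaling, median centring, a pseudocount of 0.1, the highest row of a symbol, no filter and an average log2 value of 3 or more), the counts stayed within 1.5 times those reported. A filter at an average of 5, chosen after seeing the data, changed no count. Of 70 alternative log2 ratios of single genes, 70 kept their side of 0, and 13 moved by more than the counting error. These 13 occurred under quantile normalization, upper-quartile scaling or the use of the highest row of a symbol. No further cause was tested. No paired analysis was possible because each condition has a single library, so none could be left out either. Depth did not limit the 10 genes, each resting on at least about 626 fragments, but most endothelial markers were too low for a ratio to be read.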

Other observations

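The rows of Ly6a behaved differently from each other. Its 3 main rows were higher in HG+PC-NVs, with log2 ratios of 0.50, 0.59 and 0.57. Of the 3 minor rows, 1 went from 0.582 to 0.682 FPKM, 1 from 0.510 FPKM to a value listed at 0, and 1 from 0.00402 to 4.71 FPKM. These minor rows add little to the sum for the gene. The files do not say which transcript a row stands for, and no explanation was tested.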
